A study of Mus musculus with 30 samples.

Results

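Spliceosome and hnRNP genes were the 61 genes, measured by 89 probes, whose symbol begins with Snrp, Srsf, Hnrnp, Sf3a, Sf3b, Prpf, U2af or Lsm, followed by a digit for Srsf, Prpf and Lsm, among 7151 genes that 9663 probes measured under a single symbol. The rule used names and no measured value, although it was set with earlier results of these data known, and each gene was taken as the mean of its probes. The study asked how the loss of cyclooxygenase (COX)-1 or COX-2, the enzymes that start prostaglandin synthesis, alters gene expression in the brain. Mice were 12 weeks old, and total RNA of their cerebral cortex or hippocampus was labelled with radioactive dCTP and hybridised to nylon cDNA arrays, 30 arrays in 10 groups of 3. In each region the groups were wild-type mice of the COX-1 line, COX-1-/- mice, wild-type mice of the COX-2 line, COX-2 heterozygous mice and COX-2-/- mice. The null and wild-type mice had a mixed background, given as C57BL6/6-129/Ola. The lines were bred apart: wild-type parents gave the wild-type mice, whereas a null male and a heterozygous female gave the null mice, so that genotype and litter cannot be told apart. The heterozygous groups are named in the sample labels and are not described in the methods of the study. The null mice lacked a working copy of the gene in every cell, and each sample is a whole piece of tissue, so that fewer cells of a type and less RNA per cell cannot be told apart.

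The spliceosome removes introns from pre-mRNA. Its small nuclear ribonucleoproteins (snRNPs) each carry a small RNA on a ring of Sm proteins, or of LSm proteins in the case of U6. Another LSm ring, which shares most of its proteins with that of U6, acts in mRNA decay. The U1 snRNP and the U2AF factor recognise the ends of the intron, the SF3A and SF3B complexes help U2 to bind the branch point, and the U4/U6.U5 tri-snRNP with the PRPF proteins brings in the catalytic centre. SR proteins mostly promote the use of exons, and hnRNPs, which coat nascent RNA, often oppose them. Both families are known in brain for setting neuronal splice forms.

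The values were the authors' Z scores, the natural log intensity of a probe in units of the SD of its array. A difference in Z is therefore not a fold change, and levels of different genes were not compared. The first and the second part of the probe table, equal in length, had each been standardised on its own. In cortex, 5 of the 6 arrays of the COX-1 line held identical values in the first part, all but COX-1-/- replicate 3. The COX-1 cortex comparisons therefore used the second part alone, in which 37 of the 61 genes have a probe (43 of the 89 probes), and the other 24 genes were not analysed there. Within a group, pairs of arrays had an r of 0.983 to 0.993 over all genes. No probe carried the symbol of either deleted gene, Ptgs1 or Ptgs2, so the genotypes were not checked on the arrays. The labelled tissues could hardly be checked either: of 7 cortical and 7 hippocampal marker genes 1 each was on the array, Foxp2 and Zbtb20, and in the COX-2 wild-type groups both had a mean Z below 0 in both regions (Foxp2 -0.364 in cortex and -0.325 in hippocampus, Zbtb20 -0.146 and -0.0457). A gene was called by the rule of the study if it met 3 conditions: a positive mean Z across both groups, a P under 0.05 in a Z test, and a z ratio beyond 1.5 in size, where the z ratio is here the change in mean Z as a multiple of the SD that this change has over all genes. This departs from the formula as worded in the methods of the study, which divides by the SD of the genes on an array, a value of 1 for Z scores. With that divisor no tested member would reach 1.5, the largest change being 0.252 in size. The study printed z ratios beyond 1.5 for the clone of the Snrpe probe in cortex. A divisor of 1 would not give these from the deposited values, so the study too must have used a smaller one. Genes with a mean Z above 0 were also tested with limma, with Benjamini-Hochberg adjustment over all such genes and a threshold of 0.05. With 3 arrays against 3 an exact permutation test of a single gene cannot go below p = 0.1, so none is given. The methods of the study speak both of 3 mice per group and of triplicate hybridisation of each sample, so whether the 3 arrays of a group are 3 animals is unsettled. The p-values measure the spread between arrays, which may be technical.

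The genes on which the results turned most were Snrpe and Snrpg, 2 proteins of the Sm ring. The Snrpe probe has this name in the platform annotation, while the study names its clone as another gene. Which name is right was not tested, so every result given for Snrpe rests on the annotation. The promoters of Snrpe and Snrpg are shown because the genes share a complex and not the motifs marked here. The sequences are the 250 bases before the gene start in RefSeq, build GRCm38.p6, 5′ to 3′ on the strand of the gene, at chr1:133610281-133610530 on the minus strand for Snrpe and chr6:86371290-86371539 on the plus strand for Snrpg. Capitals mark motifs, of which the first is CCGGAAG, a longer form of the GGAA core of ETS factor sites. After it come the CCAAT box read on the opposite strand (ATTGG) and TGACGTCA (the cAMP response element). None of the motifs overlap.
Snrpe: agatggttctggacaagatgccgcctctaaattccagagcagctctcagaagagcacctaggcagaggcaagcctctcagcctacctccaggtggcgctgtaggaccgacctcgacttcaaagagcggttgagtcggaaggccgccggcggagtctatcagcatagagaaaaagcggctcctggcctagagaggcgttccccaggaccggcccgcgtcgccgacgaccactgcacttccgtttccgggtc
Snrpg: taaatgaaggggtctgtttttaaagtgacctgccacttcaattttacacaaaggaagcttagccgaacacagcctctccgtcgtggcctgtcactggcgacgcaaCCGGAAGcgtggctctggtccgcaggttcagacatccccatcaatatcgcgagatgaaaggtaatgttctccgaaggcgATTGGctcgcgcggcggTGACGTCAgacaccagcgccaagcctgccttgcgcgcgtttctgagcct
The Snrpg window holds all 3 of these motifs, and the Snrpe window holds none of them on either strand. The shorter GGAA core does occur in the Snrpe window. Promoters of 54 of the 61 genes were in the table, 70 windows in all. Among them CCGGAAG was in 27.1%, against 6.91% of all 32851 promoters, GCGCATGC, the NRF1 motif, in 8.57% against 2.26%, and the CCAAT box in 48.6% against 33.8%, on either strand. TGACGTCA was in 4.29% against 1.55%, and TATAAA, the TATA box, in 5.71% against 12.4%. These shares describe letters in a window and were not tested, and no binding was measured.

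Over the 6 comparisons of a null or heterozygous group with the wild type of its line, the rule of the study called 17 differences, 11 higher and 6 lower, in 12 of the 61 genes. Snrpe was called 4 times, Snrpg and Hnrnpul1 2 times each, and 9 genes once, while 49 genes were never called. All 4 Snrpe calls rest on a probe whose clone the study names as another gene. The arrays of the compared groups did not overlap in 16 of the 17 calls. The conditions of a call favour such separation on the same arrays, so this count is no separate support. In cortex, 4 of 23 tested genes were called in COX-1-/- mice (3.95% of all tested genes were), 4 of 32 in COX-2-/- mice (4.02%) and 2 of 30 in COX-2 heterozygous mice (3.21%). In hippocampus, the counts were 0 of 31 in COX-1-/- mice (4.46%), 2 of 31 in COX-2-/- mice (4%) and 5 of 32 in COX-2 heterozygous mice (6.27%). The shares of called members lay above those of all genes in 5 of the 6 comparisons, all but COX-1-/- hippocampus, but they rest on 2 to 5 genes each, and no test of the list was made. COX-2-/- and heterozygous mice were compared with the same wild-type arrays, so their calls are not independent of each other. When any 1 array was left out, 6 of the 17 calls held each time. These were Snrpe in the 3 cortical comparisons, Lsm2 in COX-2-/- cortex, Snrpg in COX-2-/- hippocampus and Lsm7 in heterozygous hippocampus. Each of these 6 calls was lost in 1 of the other settings tried, that of Lsm7 with its brightest probe. The Snrpg call could only be of a higher level, because its wild-type arrays all lay below 0 and it passed the filter through the null group.

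After adjustment over all genes, limma passed 2 of the members in a genotype comparison, Lsm14a and Sf3a2 in heterozygous hippocampus, 2 of 32 tested, where 1.78% of all genes passed. In the other comparisons the count by limma was 0 of 23 in COX-1-/- cortex (0.05% of all genes), 0 of 32 in COX-2-/- cortex (0%), 0 of 30 in heterozygous cortex (0%), 0 of 31 in COX-1-/- hippocampus (0.117%) and 0 of 31 in COX-2-/- hippocampus (0%). With limma p-values before adjustment, under 0.05, the same comparisons gave 6 of 23 (15.3% of all genes), 5 of 32 (10.4%), 3 of 30 (8.42%), 4 of 31 (16%) and 5 of 31 (12.1%). Groups without overlap were found in 5 of 23 genes in COX-1-/- cortex (19.3% of all genes), 7 of 32 in COX-2-/- cortex (17.5%), and 3 of 30 in heterozygous cortex (15.8%). In hippocampus they were 7 of 31 in COX-1-/- mice (21.2%), 5 of 31 in COX-2-/- mice (16.8%) and 16 of 32 in heterozygous mice (32.7%). The 7 genes in COX-2-/- cortex were all higher, where 9.4% of all genes were higher and 8.06% lower without overlap. A difference that missed the threshold is not shown to be absent.

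Members differed in both directions. The median difference in Z over the tested members was 0.00272 in COX-1-/- cortex, against 0.00722 over all genes, and 0.0351 in COX-2-/- cortex, against -0.00210. In COX-2-/- cortex all 4 called members were higher, where 2.89% of all genes were called higher and 1.13% lower, so calls over all genes leaned the same way. In heterozygous cortex the medians were 0.000829 and 0.00438. In hippocampus the medians of the members were -0.00890 for COX-1-/-, -0.00501 for COX-2-/- and -0.0230 for heterozygous mice, against -0.00836, 0.00416 and 0.000452. Regardless of sign, the median size of the difference over members was 0.0669 in COX-1-/- cortex, against 0.0467 over all genes, and 0.0675 in heterozygous hippocampus, against 0.0526. In the other comparisons it was 0.0466 against 0.0446 (COX-2-/- cortex), 0.0374 against 0.0386 (heterozygous cortex), 0.0476 against 0.0495 (COX-1-/- hippocampus) and 0.0434 against 0.0448 (COX-2-/- hippocampus).

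Markers of other cell types were few on the array, and their part in these differences was not tested. Of 6 neuronal markers 3 were measured (Snap25, Nefl and Tubb3), and their summed Z in heterozygous hippocampus, 1.23 to 1.38 over the arrays, lay below that in wild-type hippocampus, 1.54 to 1.69, though none was called. The 5 member calls of that comparison thus stand beside a lower neuronal sum. Of 4 choroid plexus markers 1 was measured, Ttr, at 0.246 to 1.90 in heterozygous and 0.402 to 2.36 in wild-type hippocampus, and at 0.186 to 1.59 and 0.170 to 0.215 in cortex. In COX-1-/- cortex, beside the calls of Snrpe, Snrpg, Snrpb and Hnrnpdl, 1 of 3 tested microglial markers, Fcer1g, was called lower (-0.396, z ratio -4.01). Of the 4 microglial markers measured of 9, 2 were higher and 2 lower, with a median difference of -0.000610. Their sum overlapped at 0.357 to 0.927 against 0.845 to 1.12 in wild-type mice. In COX-2-/- cortex, beside its 4 calls, the sum over the 2 measured of 7 astrocyte markers, 1.15 to 1.24, lay above that of wild-type cortex, 1.04 to 1.10, and so did Ttr, at 0.223 to 0.447, though no marker was called. In COX-2-/- hippocampus, beside the calls of Snrpg and Prpf38a, the astrocyte sum of 1.22 to 1.26 lay below that of wild-type hippocampus, 1.30 to 1.52. Of 7 oligodendrocyte markers 0 were on the array.

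**Figure D1:**
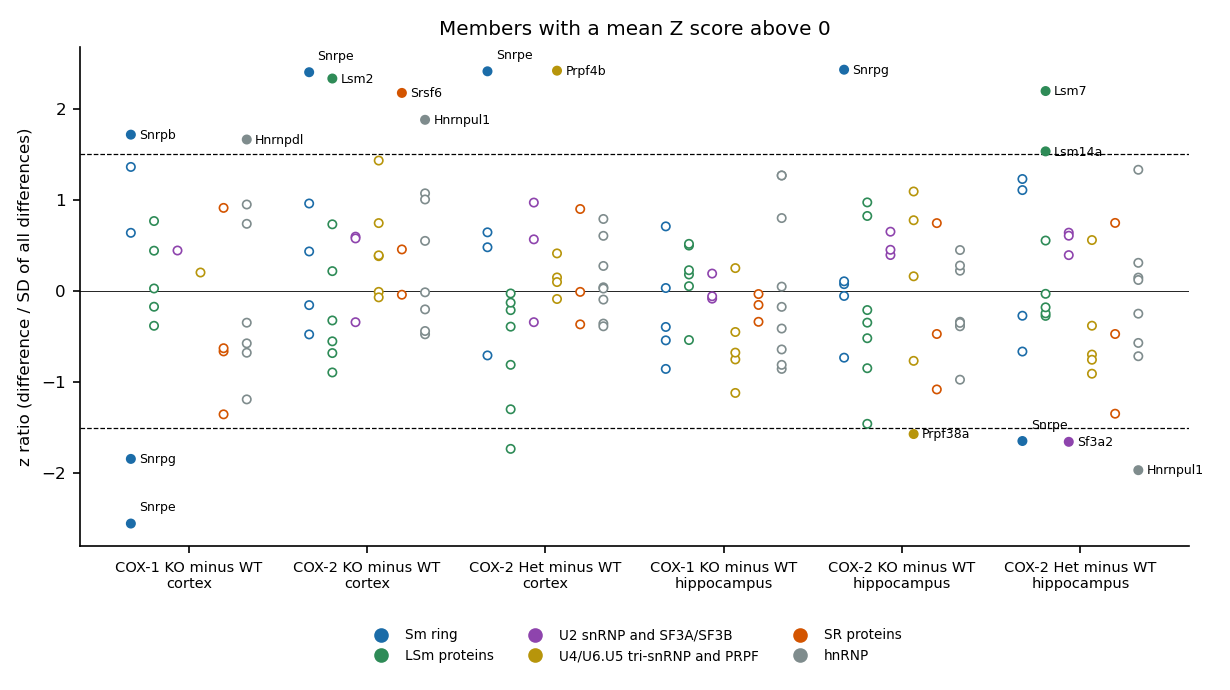
The z ratio of each tested spliceosome and hnRNP gene in the 6 comparisons with wild-type mice, 1 point a gene, with the limits of 1.5 as lines and called genes as filled points. The 17 calls lie at both signs, Snrpe stands below the lower limit in COX-1-/- cortex (-2.55) and above the upper one in COX-2-/- cortex (2.40), and the open point beyond the limit in heterozygous cortex is Lsm3 (-1.73), which missed the Z test.

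Snrpe, which encodes Sm protein E, differed most often. In cortex its 1 probe read 1.91, 2.07 and 2.07 in wild-type mice of the COX-1 line and 1.82, 1.78 and 1.69 in COX-1-/- mice. It read 1.84, 1.70 and 1.64 in wild-type mice of the COX-2 line, 2.0, 1.93 and 1.94 in heterozygous mice and 1.90, 2.01 and 1.92 in COX-2-/- mice. All COX-1-/- arrays thus lay below those of their wild type, and all COX-2-/- and heterozygous arrays above those of theirs. Snrpe was called lower in COX-1-/- cortex (difference -0.252, SE 0.0571, z ratio -2.55, adjusted p = 0.0716 by limma), where its z ratio ranked 16 by size of 2001 genes. It was called higher in COX-2-/- cortex (+0.218, SE 0.0542, z ratio 2.40, adjusted p = 0.296 by limma), at rank 18 of 3361, and in heterozygous cortex (+0.232, z ratio 2.41, adjusted p = 0.263 by limma).

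The opposite signs in the 2 lines were tested directly. The COX-1 effect minus the COX-2 effect in cortex was -0.470 (SE 0.0807), with 95% limits of -0.642 and -0.297 and an adjusted p of 0.0684 by limma. The wild-type groups of the 2 lines also differed: the COX-2 line was 0.290 below the COX-1 line in cortex (1.73 ± 0.101 against 2.02 ± 0.0913, SD, n = 3, adjusted p = 0.0189 by limma). The null groups lay between them, with a mean of 1.76 ± 0.0627 for COX-1-/- and of 1.94 ± 0.0570 for COX-2-/- mice (SD, n = 3 arrays). Set against the wild-type arrays of both lines together, the differences were -0.107 in COX-1-/- (z ratio -1.41), 0.0730 in COX-2-/- (0.879) and 0.0870 in heterozygous cortex (0.946), and every cortical call of Snrpe ended. The part of the wild-type difference in these calls was not tested further.

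In hippocampus Snrpe read 1.74, 1.85 and 1.81 in wild-type mice of the COX-1 line and 1.86, 1.95 and 1.82 in COX-1-/- mice, which overlapped (+0.0750, 95% limits -0.0234 and 0.173). It read 1.80, 1.92 and 1.82 in COX-2 wild-type and 1.83, 1.89 and 1.85 in COX-2-/- mice, also overlapping (+0.00977, 95% limits -0.0886 and 0.108). The heterozygous arrays, at 1.68, 1.71 and 1.62, lay below all those of their wild type and the call was lower (-0.178, SE 0.0460, z ratio -1.65, adjusted p = 0.0623 by limma). That call ended without COX-2 wild-type replicate 2 or heterozygous replicate 3, and against both wild types together (-0.154, z ratio -1.23). Heterozygous mice thus lay above their wild type in cortex and below it in hippocampus, whereas COX-2-/- mice lay above it in cortex and overlapped it in hippocampus. The clone behind this probe is paired with Snrpe in the platform annotation, while the table of the study names it as ring finger protein 24. Which name is right was not tested. Under that name the study already reported it in cortex, lower in COX-1-/- and higher in COX-2-/- mice, and proposed an isoform-specific effect. The opposite signs here come from the same arrays and are not a separate finding.

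**Figure D2:**
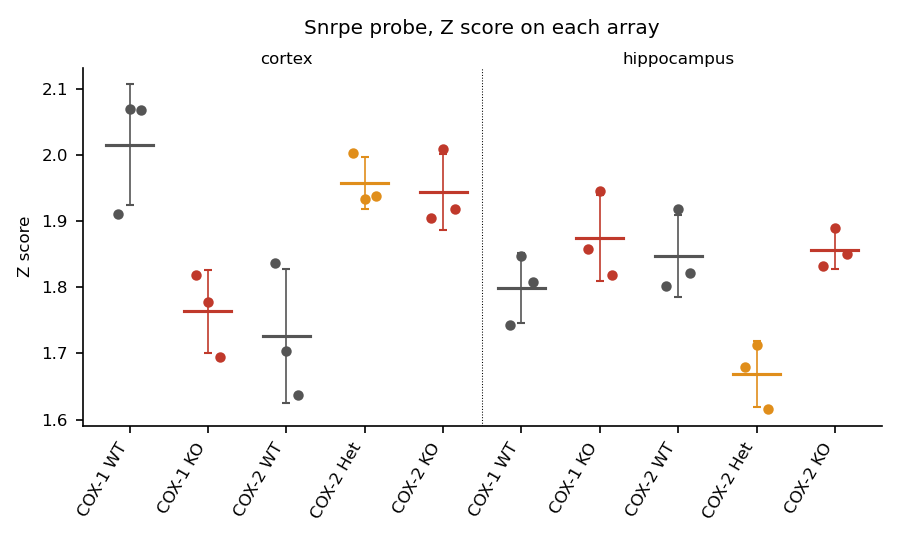
Z score of the Snrpe probe on each of the 30 arrays, by region and group, with the group means as bars. In cortex the COX-1 wild-type arrays (1.91 to 2.07) stand above COX-1-/- arrays (1.69 to 1.82), while the COX-2 wild-type arrays (1.64 to 1.84) stand below COX-2-/- arrays (1.90 to 2.01).

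Of the other Sm proteins, Snrpg and Snrpb were called and Snrpd1 and Snrpd2 were not, while Snrpf had a mean Z below 0 and was not tested. In cortex Snrpg read 0.332, 0.271 and 0.293 in wild-type mice of the COX-1 line and 0.153, 0.185 and 0.0114 in COX-1-/- mice, with no overlap (-0.182, SE 0.0574, z ratio -1.84, adjusted p = 0.160 by limma). The call ended without COX-1-/- replicate 3, whose value is the lowest (-0.129, z ratio -1.31), and against both wild types together (-0.0587). In COX-2-/- cortex Snrpg differed by -0.0432 from its wild type and was not called. In hippocampus Snrpg was called higher in COX-2-/- mice, which read 0.0852, 0.225 and 0.248 against -0.0341, -0.0401 and -0.0383 in wild-type mice (+0.223, SE 0.0503, z ratio 2.43, adjusted p = 0.289 by limma). As all wild-type arrays lay below 0, Snrpg passed the filter on mean Z only through the null group, so this call had to be of a higher level. Heterozygous mice lay above the same wild type without overlap and were not called (+0.133, z ratio 1.23). Snrpg passed the filter there, too, only through the heterozygous group.

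Snrpb encodes the Sm proteins B and B′. In COX-1-/- cortex it was called higher, unlike Snrpe and Snrpg, at 0.984, 0.997 and 0.881 against 0.779, 0.772 and 0.803 in wild-type mice (+0.169, SE 0.0360, z ratio 1.72, adjusted p = 0.0579 by limma). All null arrays lay above all wild-type arrays. The call ended without COX-1-/- replicate 1 (z ratio 1.44) or replicate 2 (1.34). In COX-1-/- hippocampus the difference had the opposite sign and was not called (-0.0905, z ratio -0.856). Snrpd2 was higher without overlap in COX-1-/- cortex, where it read 0.235, 0.291 and 0.190 against 0.107, 0.0433 and 0.162, and was not called (+0.134, z ratio 1.36). Of the 5 Sm genes tested in COX-1-/- cortex, 1 was thus called higher and 2 lower, so the calls within a single ring had both signs. Snrpe, 1 of the 2 lower, rests on a probe of unsettled name, but Snrpb and Snrpg alone also had opposite signs.

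**Figure D3:**
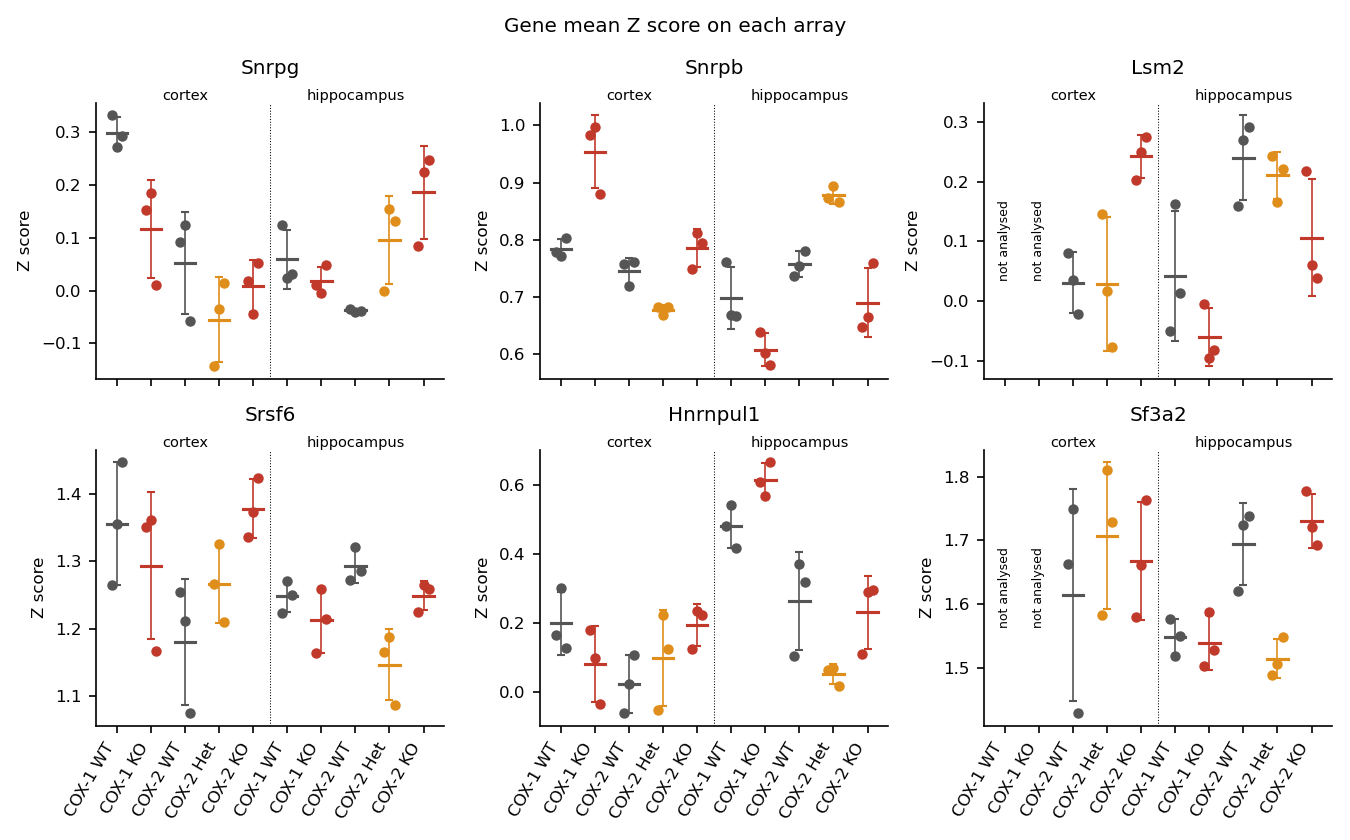
Z scores of 6 called genes on each array, 1 panel a gene (Snrpg, Snrpb, Lsm2, Srsf6, Hnrnpul1 and Sf3a2), by region and group, with the group means as bars. Cortical Snrpg lies at 0.271 to 0.332 on COX-1 wild-type arrays and 0.0114 to 0.185 on COX-1-/- arrays, while Snrpb lies at 0.772 to 0.803 and 0.881 to 0.997, and COX-1 cortex is not analysed for Lsm2 and Sf3a2.

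Among 8 measured LSm proteins, 7 were tested in every COX-2 comparison and Lsm2, Lsm7 and Lsm14a were called. Lsm2, a subunit of both the nuclear and the cytoplasmic LSm ring, read 0.203, 0.250 and 0.275 in COX-2-/- cortex and 0.0800, 0.0348 and -0.0216 in wild-type cortex. The groups were well apart (+0.212, SE 0.0558, z ratio 2.33, adjusted p = 0.296 by limma), and the call held without any 1 array. In hippocampus the difference of Lsm2 had the opposite sign and was not called (-0.134, z ratio -1.46), and in heterozygous cortex it was -0.00260. Of the 7 tested LSm genes 3 lay above wild type in COX-2-/- cortex, Lsm2, Lsm8 (+0.0664) and Lsm14b (+0.0198), while Lsm7, Lsm14a and Lsm3 had z ratios of -0.895, -0.682 and -0.553. In heterozygous cortex 0 of the 7 tested LSm genes lay above wild type (median difference -0.0376), with the lowest z ratios for Lsm3 (-1.73), Lsm7 (-1.30) and Lsm14a (-0.811), and none was called.

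In heterozygous hippocampus Lsm7 and Lsm14a were called higher. Lsm7, another subunit of the LSm rings, read 0.742, 0.760 and 0.807 against 0.591, 0.504 and 0.501 in wild-type mice (+0.238, SE 0.0650, z ratio 2.20, adjusted p = 0.0737 by limma). Lsm14a, which acts in P-bodies and not in the spliceosome, read 0.604, 0.591 and 0.563 against 0.438, 0.407 and 0.416 (+0.166, SE 0.0366, z ratio 1.53, adjusted p = 0.0361 by limma). Neither pair of groups overlapped. Both differences came mostly from 1 probe of the gene: the 2 probes of Lsm7 differed by +0.463 and +0.0121, and the 3 of Lsm14a by +0.412, +0.150 and -0.0634. With the brightest probe of the gene in place of the mean, the call of Lsm7 ended (+0.0121, z ratio 0.107). Lsm14a then had the opposite sign (-0.0634, adjusted p = 0.529 by limma). The limma call of Lsm14a ended when any 1 array was left out.

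The U1 proteins Snrpa and Snrpc and the U2AF gene U2af1l4 had a mean Z below 0 in every comparison and were not tested. Of 10 genes of the U2 snRNP and the SF3 complexes 3 or 4 were tested in the COX-2 and hippocampal comparisons. Sf3a2, a subunit of SF3A, fell in heterozygous hippocampus, to 1.49, 1.51 and 1.55 from 1.62, 1.72 and 1.74 in wild-type mice (-0.179, SE 0.0411, z ratio -1.66, adjusted p = 0.0414 by limma). The arrays did not overlap, but the adjusted p was as high as 0.172 when 1 array was left out and stayed under the threshold only without wild-type replicate 1, and the rule of the study lost the call without wild-type replicate 2 or 3 or heterozygous replicate 1. The control group was itself above the wild type of the COX-1 line (1.69 ± 0.0642 against 1.55 ± 0.0284, SD, n = 3, adjusted p = 0.0471 by limma). In heterozygous cortex Sf3a2 differed by +0.0933 and was not called (z ratio 0.971).

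Of 10 PRPF genes 5 or 6 were tested in these comparisons. Prpf38a, a factor needed to activate the spliceosome, was called lower in COX-2-/- hippocampus, at 0.530, 0.364 and 0.419 against 0.554, 0.590 and 0.602 (-0.144, z ratio -1.57, adjusted p = 0.294 by limma). The nearest arrays of the 2 groups were 0.530 and 0.554, and leaving out any of wild-type replicates 2 and 3 and COX-2-/- replicates 2 and 3 ended the call. With the level of neighbouring rows of the table removed the difference was -0.0203. Prpf4b, a kinase associated with the tri-snRNP, was called higher in heterozygous cortex, at 0.530, 0.757 and 0.775 against 0.570, 0.507 and 0.287 (+0.232, z ratio 2.42, adjusted p = 0.533 by limma). Its groups overlapped, and it is the 1 call of the 17 in which they did; leaving out any of wild-type replicates 2 and 3 and heterozygous replicates 2 and 3 ended the call. Prpf8, the protein at the catalytic centre, was not called in any comparison, its largest difference being -0.118 in COX-1-/- hippocampus (z ratio -1.12).

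Of 7 SR genes 3 were tested in the COX-2 and hippocampal comparisons, Srsf5, Srsf6 and Srsf10. Srsf6 was called higher in COX-2-/- cortex, at 1.34, 1.37 and 1.42 against 1.25, 1.21 and 1.07 in wild-type mice (+0.197, SE 0.0529, adjusted p = 0.296 by limma). The groups did not overlap. The call ended without wild-type replicate 3, the lowest array (+0.145, z ratio 1.49). In heterozygous hippocampus Srsf6 lay below wild type without overlap and was not called (-0.146, z ratio -1.35). Srsf10, which acts as a splicing repressor when dephosphorylated, had a z ratio of -1.35 in COX-1-/- cortex, and Srsf5 one of -1.08 in COX-2-/- hippocampus.

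Among 17 hnRNP genes, Hnrnpul1 and Hnrnpdl were called. Hnrnpul1 is a nuclear protein of the hnRNP U family with a part in the DNA damage response. In cortex it read 0.124, 0.234 and 0.223 in COX-2-/- mice against -0.0610, 0.0227 and 0.108 in wild-type mice (+0.170, SE 0.0698, z ratio 1.88, adjusted p = 0.458 by limma). In heterozygous hippocampus it was called lower, at 0.0652, 0.0703 and 0.0180 against 0.104, 0.371 and 0.318 (-0.213, SE 0.0661, z ratio -1.97, adjusted p = 0.107 by limma). The groups did not overlap in either region, though the wild-type arrays were widely spread. The first call ended without wild-type replicate 1 or 2 and the second without wild-type replicate 2 or 3.

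In COX-1-/- hippocampus Hnrnpul1 read 0.609, 0.568 and 0.667 against 0.482, 0.541 and 0.418, apart and not called (+0.134, z ratio 1.27). Hnrnpdl, a paralogue of Hnrnpd that binds AU-rich RNA, was called higher in COX-1-/- cortex on its probe in the second part of the table, at 0.158, 0.235 and 0.266 against 0.0937, -0.0167 and 0.0902 (+0.164, SE 0.0396, z ratio 1.66, adjusted p = 0.0823 by limma). The groups did not overlap, and leaving out wild-type replicate 2, COX-1-/- replicate 2 or COX-1-/- replicate 3 ended the call. The remaining hnRNP genes were not called: the hippocampal z ratio of Hnrnpll was 1.27 for COX-1-/- mice and 1.33 for heterozygous mice, and Hnrnpk, Hnrnpl and Hnrnpa1 had -0.856, -0.811 and 0.801 in COX-1-/- hippocampus. Hnrnpa2b1, Hnrnpu, Hnrnpr and Hnrnpab, among others, had a mean Z below 0 in every comparison.

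Probes of a gene often disagreed. Of the 17 genes with more than 1 probe, all probes had the same sign in 6 in COX-2-/- cortex, 8 in heterozygous cortex, 6 in COX-1-/- hippocampus, 7 in COX-2-/- hippocampus and 6 in heterozygous hippocampus, and of 6 such genes in COX-1-/- cortex in 4. In heterozygous hippocampus the 5 probes of Srsf10 differed by +0.308, +0.361, -0.0811, -0.127 and -0.0573, and the 3 of Lsm14a are given above. The probe at +0.361 passed limma among probes (adjusted p = 0.0168), although the mean of the gene was not called (+0.0809). Taken one by one, the probes called by the rule of the study were 4 of 28 in COX-1-/- cortex (2.71% of all tested probes), 8 of 48 in COX-2-/- cortex (4.32%) and 4 of 46 in heterozygous cortex (3.26%). In hippocampus they were 0 of 47 in COX-1-/- mice (4.80%), 2 of 47 in COX-2-/- mice (4.09%) and 6 of 49 in heterozygous mice (6.21%). Single probes that were called while the gene was not included 1 of Srsf10 in COX-1-/- cortex (-0.287), 1 each of Snrpb2 (+0.227), Hnrnpc (+0.157), Hnrnpdl (+0.158) and Lsm14a (-0.153) in COX-2-/- cortex, 1 of Srsf3 in COX-2-/- hippocampus (-0.206) and 1 of Hnrnpu in heterozygous hippocampus (+0.184). Which transcripts the probes of a gene share was not analysed here.

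**Figure D4:**
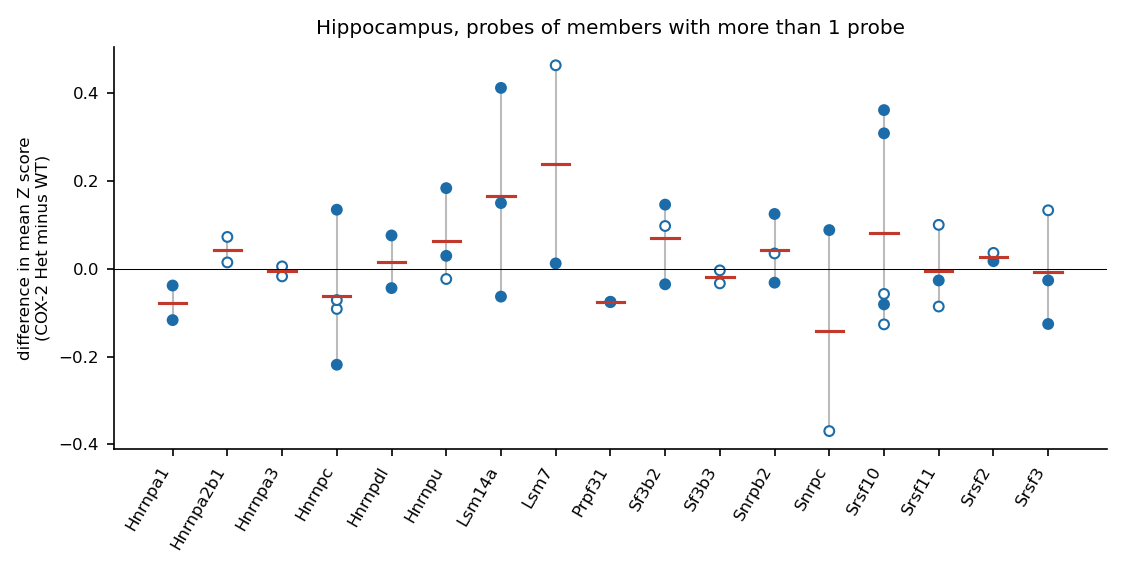
Difference in Z between COX-2 heterozygous and wild-type hippocampus for each probe of the genes with more than 1 probe. Each gene is 1 column, with the mean of its probes. The 5 probes of Srsf10 run from -0.127 to +0.361 and the 3 of Lsm14a from -0.0634 to +0.412.

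The wild-type mice of the 2 lines differed in some of these genes. In cortex limma passed 2 of 23 members, Snrpe and Snrpg, where 3.04% of all genes passed, and both were lower in the COX-2 line (Snrpg -0.246, adjusted p = 0.0338 by limma). Leaving out any 1 array ended the result for Snrpg, and leaving out replicate 2 or 3 of either wild type ended that for Snrpe. The sum over the 4 microglial markers also lay lower, at 0.265 to 0.420 in the COX-2 line against 0.845 to 1.12. Of these markers 3 were lower and 1 was higher, and 1 of the lower ones passed limma. In hippocampus limma passed 1 of 32, Sf3a2 (+0.145), where 6.89% of all genes passed. Hnrnpul1 had the largest difference of a tested member there (-0.216). It missed the limma threshold but was called lower in the COX-2 line by the rule of the study. The 2 wild-type groups did not overlap in 10 of 23 genes in cortex (22.2% of all genes) and in 10 of 32 in hippocampus (29.5%). In hippocampus 22 of the 32 members (68.8%) were higher in the COX-2 line, against 51.4% of all genes, with a median difference of 0.0412 against 0.00390. The sum over the 3 neuronal markers was likewise higher without overlap, at 1.54 to 1.69 against 1.19 to 1.25, and 1 of them was called. The part of either marker list was not tested. For the COX-1 effect minus the COX-2 effect limma passed 0 of 23 members in cortex (0% of all genes) and 0 of 32 in hippocampus (0%), while an unadjusted p under 0.05 was reached by 7 of 23 (11.4%) and 2 of 32 (6.76%). In hippocampus this difference was -0.265 for Snrpg (adjusted p = 0.639 by limma).

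Levels in hippocampus and cortex were compared within each genotype. In the COX-1 line limma passed 9 of 23 members in wild-type mice (31.7% of all genes) and 7 of 22 in COX-1-/- mice (27.9%). In the COX-2 line it passed 2 of 31 in wild-type mice (5.34%), 6 of 31 in heterozygous mice (12.5%) and 0 of 31 in COX-2-/- mice (0.0297%), of which 8 of 31 reached an unadjusted p under 0.05 (14.8%). In all, 16 members passed in at least 1 group, and the counts above 0 rest on 2 to 9 genes each. Cell type markers passed limma in the same comparisons: 1 neuronal marker was higher and 2 microglial markers lower in hippocampus of COX-1 wild-type mice, 1 neuronal marker higher and 1 microglial marker lower in COX-1-/- mice, and 1 astrocyte and 1 microglial marker higher in heterozygous mice. Their part in the regional differences was not tested.

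Hnrnpul1 was higher in hippocampus in the COX-1 line, by 0.281 in wild-type mice (adjusted p = 0.00468 by limma) and by 0.533 in COX-1-/- mice (adjusted p = 1.62e-05 by limma). It was also higher in hippocampus of COX-2 wild-type mice, by 0.241, the largest difference of a tested member there. The arrays of the regions overlapped in that group and Hnrnpul1 did not pass limma, so the direction is not particular to the COX-1 line. Lsm14a was lower in hippocampus in wild-type and COX-1-/- mice of the COX-1 line, by -0.177 (adjusted p = 0.000443 by limma) and -0.144. So was Hnrnpl, by -0.177 and -0.228. With the level of neighbouring rows removed, Hnrnpl in wild-type mice was at -0.0984 and no longer passed (adjusted p = 0.164 by limma). These 3 genes kept their sign in both genotypes of the COX-1 line. Snrpb was lower in hippocampus in COX-1-/- mice, at 0.639, 0.603 and 0.582 against 0.984, 0.997 and 0.881 in cortex (-0.346, adjusted p = 3.90e-07 by limma). It was higher in hippocampus in heterozygous mice, at 0.872, 0.895 and 0.866 against 0.683, 0.669 and 0.683 in cortex (+0.20, adjusted p = 0.00186 by limma), and the difference between these groups was not tested. Snrpe was lower in hippocampus in heterozygous (-0.289, adjusted p = 0.00189 by limma) and in COX-1 wild-type mice (adjusted p = 0.00259 by limma, but -0.108 and adjusted p = 0.106 with the level of neighbouring rows removed), as was Snrpg in COX-1 wild-type mice (-0.239, adjusted p = 0.00170 by limma), while Snrpd2 was higher there (+0.228, adjusted p = 0.000461 by limma). In COX-2 wild-type mice the 2 passing genes were Lsm2 (+0.209, adjusted p = 0.0449 by limma) and Hnrnpc (+0.206, adjusted p = 0.0329 by limma), and Hnrnpc had the opposite sign with its brightest probe alone (-0.145). The result for Lsm2 ended when any 1 array was left out and that for Hnrnpc for 5 of the 6 arrays, all but hippocampal replicate 3.

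**Figure D5:**
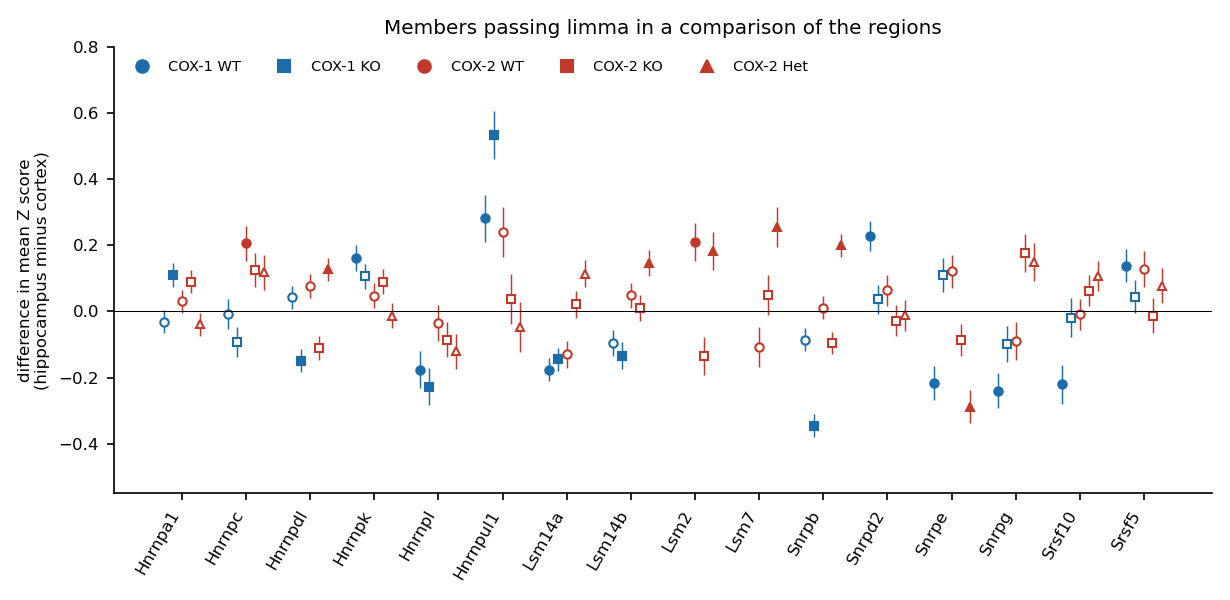
Difference in Z between hippocampus and cortex for the members that passed limma in at least 1 of the 5 groups. Each gene is 1 column, with filled points where it passed. Hnrnpul1 lies on the positive side in both COX-1 groups (0.281 and 0.533). Snrpb lies on the negative side in COX-1-/- mice (-0.346) and on the positive side in heterozygous mice (+0.20).

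Genes of other splicing factors, a list of 91 that included helicases, kinases and exon junction proteins, were measured for 65, of which 36 to 38 were tested in the comparisons other than COX-1-/- cortex. The rule of the study called 5 of them. Cdc5l, of the complex around PRPF19, was higher in COX-2-/- cortex (+0.145, z ratio 1.60) and Rbm17, a factor of early spliceosomes, in heterozygous hippocampus (+0.176, z ratio 1.62). In COX-1-/- hippocampus, where 0 of the 31 members were called, Wbp4 (-0.265, z ratio -2.50, adjusted p = 0.0466 by limma) and Usp39 of the tri-snRNP (-0.181, z ratio -1.71) were lower. Srpk1, a kinase of SR proteins, was lower in COX-2-/- hippocampus (-0.146, z ratio -1.59). In COX-1-/- and heterozygous cortex 0 of 25 and 0 of 36 were called.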

How the data were processed

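Per the labels and the methods of the study, the authors labelled total RNA by reverse transcription, read the membranes on a phosphoimager, took spot intensities from ArrayPro and converted their natural log to Z scores, array by array, in an Excel macro. The deposited values are these scores, standardised in each part of the table. Probes were named from the platform annotation, in which 9663 carry 1 symbol and 6797 none, and 5 probes that share a member symbol with others were left out. Genes and lists were chosen with earlier results of these data known. Probes of a gene were averaged. Calls followed the rule of the study, recomputed on gene means. limma 3.58.1 in R 4.3.3 (with the package data.table, version 1.17.8) was fitted to group means with empirical Bayes moderation, with the Benjamini-Hochberg adjustment over genes with a mean Z above 0: to the 15 arrays of a region for hippocampus and for comparisons with COX-1 cortex, to the 9 cortical arrays of the COX-2 line otherwise, and to both regions for the regional comparisons. No depth applies, and the number of arrays limits the precision. Scripts were tested on simulated data.

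Named genes were those called in a genotype comparison, those passing limma there, the 3 highest and 3 lowest z ratios of each genotype comparison, those passing limma between wild types or between regions in COX-2 wild-type mice, other splicing genes called, and Snrpe in all groups. Single probes and genes named outside this rule were chosen after their values were seen. The alternatives tried were centring on the array median, quantile normalization, dropping the mean Z filter or raising it to 0.5, the brightest probe, removal of running medians over 201 rows, a control group of both wild types, other sets of arrays, an intensity trend, a replicate block and leaving out each array. Probes taken one by one were added after the data were seen. Promoters came from RefSeq (GRCm38.p6). Python 3.11.15, pandas 2.3.3 and matplotlib 3.10.9 were used for promoters and figures.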

Additional observations from a re-analysis of the deposited data

Results flagged for a closer look

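For Snrpe in cortex the COX-1 effect (-0.252) minus the COX-2 effect (+0.218) was -0.470 (SE 0.0807), with an unadjusted p of 3.84e-05 and an adjusted p of 0.0684 by limma, which missed the threshold of 0.05. It was singled out because every COX-1-/- array lay below its wild type and every COX-2-/- array above its own. The unadjusted p takes no account of this choice. The wild types of the lines differed by -0.290 (COX-2 line minus COX-1 line), and against both wild types together the effects were -0.107 and 0.0730 and neither was called. The probe carries another gene name in the table of the study, which already lists it as changed in these opposite directions in cortex.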

How the results depend on the processing

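With another setting, the 17 calls and the limma results of single members kept direction and side of the threshold in 298 recomputations, lost the threshold in 79 and changed sign in 3. Lsm14a in heterozygous hippocampus had the opposite sign with its brightest probe (-0.0634), under the rule and under limma, and so had Hnrnpc between regions in COX-2 wild-type mice (-0.145). The cause of the other changes was not tested. Each count below is of members, by comparison.

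Under the rule of the study, COX-1-/- cortex (4) gave 2 with a mean Z above 0.5 and 1 against both wild types. COX-2-/- cortex (4) gave 8 without the filter, 2 with a mean Z above 0.5, 1 against both wild types and 8 with probes one by one. COX-1-/- hippocampus (0) gave 1 without the filter, 1 after the row correction and 2 against both wild types. COX-2-/- hippocampus (2) gave 1 with a mean Z above 0.5. Heterozygous cortex (2) gave 1 with median centring, 4 without the filter, 1 after the row correction, 1 against both wild types and 4 with probes one by one. Heterozygous hippocampus (5) gave 9 without the filter, 3 with the brightest probe and 2 against both wild types. Without 1 array the counts ran from 2 to 5 and from 3 to 4 in COX-1-/- and COX-2-/- cortex, from 0 to 2 and from 1 to 3 in their hippocampus, and from 1 to 2 and from 1 to 5 in heterozygous cortex and hippocampus. The counts moved by over 1.5 times without COX-1-/- replicate 2 of either region (2 in each), without replicates 2 or 3 of the COX-2 wild type or of COX-2-/- in hippocampus (1 each), without COX-2 wild-type replicate 3 or heterozygous replicates 2 or 3 in cortex (1 each), and without COX-2 wild-type replicate 2 (1) or 3 (2) in heterozygous hippocampus.

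Under limma, COX-1-/- cortex (0) gave 1 with a mean Z above 0.5 and 3 with an intensity trend. COX-2-/- hippocampus and heterozygous cortex (0 each) gave 1 each against both wild types. Heterozygous hippocampus (2) gave 1 with quantile normalization, 4 with a mean Z above 0.5, 1 with the brightest probe, 4 after the row correction, 7 against both wild types and 5 with a trend. Between wild types, cortex (2) gave 1 with median centring, 1 with a mean Z above 0.5 and 0 with the compared groups alone, and hippocampus (1) gave 2 with median centring, 3 with quantile normalization, 14 without the filter, 0 with a mean Z above 0.5, 2 with the brightest probe, 0 after the row correction, 0 with the groups alone and 5 with a trend. The difference of the line effects in cortex (0) gave 1 with a mean Z above 0.5 and 1 with a trend. Between regions, COX-2 wild type (2) gave 1 with centring, 1 with quantile normalization, 0 with a mean Z above 0.5, 1 with the brightest probe, 0 after the row correction and 0 with the groups alone, and heterozygous mice (6) gave 3 with a mean Z above 0.5. COX-1 wild type (9) gave 15 without the filter and 4 with a mean Z above 0.5, and COX-1-/- mice (7) gave 12, 2 and, with the groups alone, 3. Without 1 array the limma counts ran from 0 to 1 in COX-2-/- hippocampus, 0 to 2 in heterozygous hippocampus, 0 to 1 and 0 to 2 between wild types in cortex and hippocampus, 0 to 1 for the line effects in cortex, and, between regions, 0 to 1 in COX-2 wild-type and COX-2-/- mice, 2 to 7 in heterozygous, 6 to 10 in COX-1 wild-type and 5 to 9 in COX-1-/- mice.

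Arrays of the same replicate number deviated together weakly at most (r from -0.126 to 0.184). Within hippocampus every r was positive, from 0.0117 to 0.184, while over the other comparisons r had both signs. Whether the numbers mark pairs was not tested. With the replicate number as a block, limma passed 4 members in heterozygous hippocampus, 2 between wild types in hippocampus and 1 for the line effects in cortex. Signal over background limits the report to the genes with a mean Z above 0, 30 to 32 of the 61 and 23 in COX-1-/- cortex.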
